A study of Sus scrofa with 2 samples.

Results

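Cells display fragments of their own proteins, and of any virus inside them, on MHC class I molecules. The genes described here make those fragments, carry them into the endoplasmic reticulum and load them, in PSI, a clone of smooth muscle cells from pig ileum. The set comprised 10 genes, listed by symbol for their role: B2M, TAP1, TAP2, TAPBP, PSMB8, PSMB9, PSMB10, ERAP1, ERAP2 and NLRC5. Of these, 9 had an identifier paired with their symbol in the expression table of 25880 gene identifiers. No identifier in its rows was paired with the symbol B2M, so B2M was not analysed here. The series held 1 group of 2 RNA-seq libraries, replicates 1 and 2, both from cells kept in DMEM with 10% serum (FBS) and 1% antibiotics. The labels name no treatment, and no other tissue or cell line was included. A single clone is a narrow model of ileal muscle. The labels do not say whether the duplicates were separate cultures, so each SD measures the spread between 2 libraries, which may be technical.

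Levels are FPKM, that is fragments per kilobase of counted gene length and per 1000000 of the library total. The totals recovered from the steps of the values were 35176565 for replicate 1 and 32217729 for replicate 2. One read in a gene of 1 kb was thus worth 0.0284 FPKM in replicate 1 and 0.0310 FPKM in replicate 2. Read numbers printed below were recovered in the same way and are the fewest that fit the deposited values.

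In the class I pathway the proteasome, a barrel-shaped protease, cuts cytosolic proteins into peptides. Interferon gamma induces 3 alternative catalytic subunits, encoded by PSMB8, PSMB9 and PSMB10, which take the places of the constitutive subunits PSMB5, PSMB6 and PSMB7. The transporter TAP1-TAP2 pumps the peptides into the endoplasmic reticulum, where tapasin (TAPBP) holds empty class I molecules next to it and the aminopeptidases ERAP1 and ERAP2 trim the peptides. NLRC5 is a coactivator of class I and class I pathway promoters, and B2M is the light chain of every class I molecule. Most nucleated cells run this pathway at a basal level.

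The clone expressed most of the pathway, with the transporter and its tapasin bridge at the top and the coactivator at the bottom. Of the 9 measured genes, 8 reached 1 FPKM in both libraries, and NLRC5 did not. The same level was reached by 40.9% of all identifiers and by 61.5% of the 14857 identifiers with a symbol. The median over the 9 genes was 4.60 on the log2(mean FPKM + 1) scale, beside 0.22 over all identifiers and 2.29 over those with a symbol. The order of mean levels was TAP2, TAPBP, TAP1, PSMB9, PSMB8, PSMB10, ERAP1, ERAP2 and NLRC5, an 85.1-fold range. In all 8 neighbouring pairs of that order the ranges of the 2 libraries did not overlap, and the gap between them ran from 0.670 FPKM (ERAP2 over NLRC5) to 19.5 FPKM (TAPBP over TAP1). These gaps describe an order that was taken from the same values, within these libraries alone. A wrong gene model would move a gene in it.

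**Figure D1:**
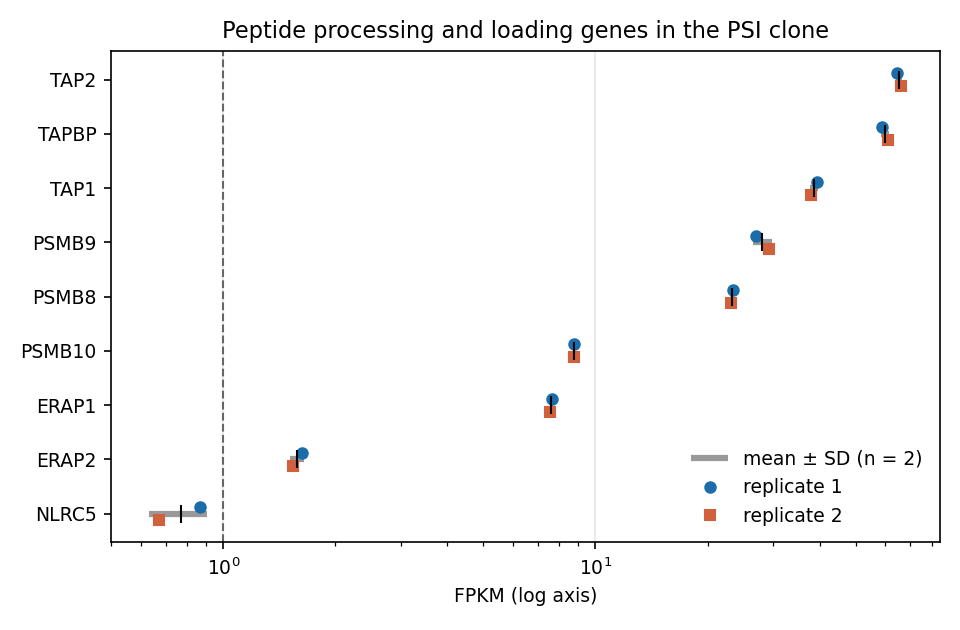
FPKM (log axis) of the 9 measured genes in replicate 1 (circles) and replicate 2 (squares), with the mean (tick) and SD (grey bar, n = 2); the dashed line marks 1 FPKM. TAP2 is highest at 65.3, NLRC5 lies left of the line at 0.768, and the 2 libraries lie close together for every gene but NLRC5.

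Of the 9 genes TAP2 was the highest, and TAP1 came next after TAPBP. TAP2, one of the transporter's paired chains, had 64.4 FPKM in replicate 1 and 66.3 in replicate 2 (65.3 ± 1.32, SD, n = 2). TAP1, the partner it must pair with, had 39.3 and 38.0 (38.7 ± 0.923). TAP2 thus stood above TAP1 in both libraries, with a ratio of 1.69 ± 0.0744 (SD, n = 2). The TAP2 values rested on 6286 and 5924 reads and the TAP1 values on 4044 and 3581. Both genes lay high in the table, at percentile 96.6 (TAP2) and 93.6 (TAP1) of all identifiers by mean FPKM.

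Tapasin was expressed at nearly the level of TAP2. TAPBP had 58.9 FPKM in replicate 1 and 61.0 in replicate 2 (59.9 ± 1.49, SD, n = 2), based on 4895 and 4644 reads. TAPBPL, the tapasin-related editor that works outside the loading complex, was lower at 13.5 ± 0.297, and TAPBP exceeded it by a ratio of 4.45 ± 0.209. The RefSeq model of TAPBP shares 448 bases with ZBTB22, so reads from that stretch may have been dropped or misassigned.

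Tapasin works beside general chaperones of glycoprotein folding, and all 8 measured loading partners and folding chaperones, TAPBPL included, reached 1 FPKM. PDIA3, the disulfide isomerase bound to tapasin, had 657 ± 14.01 FPKM (SD, n = 2), and the lectin chaperone CALR had 386 ± 1.79. HSPA5, the main luminal chaperone, had 465 ± 1.82. The median of this list was 6.28 on the log2(mean FPKM + 1) scale, above that of the 9 class I pathway genes. These chaperones serve secreted and membrane proteins in general.

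Of the 3 inducible proteasome subunits, PSMB9 and PSMB8 were expressed at similar levels and PSMB10 lower. PSMB9, which takes the caspase-like place in the barrel, had 26.9 FPKM in replicate 1 and 29.2 in replicate 2 (28.1 ± 1.63, SD, n = 2). PSMB8, which takes the chymotrypsin-like place, had 23.4 and 23.1 (23.2 ± 0.196). PSMB10, which takes the trypsin-like place, had 8.76 and 8.77 (8.77 ± 0.0129). PSMB9 exceeded PSMB8 in both libraries, by ratios of 1.15 and 1.27, and PSMB8 exceeded PSMB10 by a ratio of 2.65 ± 0.0263.

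The low place of PSMB10 depends on the gene length used by the authors. In reads, the 3 subunits were much closer: PSMB8 had 1095 and 991, PSMB9 had 881 and 876, and PSMB10 had 1034 and 949. Without division by length the ratio of PSMB8 to PSMB10 was 1.05 ± 0.0104 (SD, n = 2). That ratio is not an expression level, since reads also grow with gene length and are minimum estimates fitted gene by gene. The counted length recovered for PSMB10 was 3357 bases, longer than its whole RefSeq gene of 2700 bases, whereas PSMB8 and PSMB9 were counted over 1332 and 930 bases. Each is the shortest length that fits the deposited values.

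Beside the other measured subunits of the barrel, here called standing subunits, the inducible ones were at the low end. Among the standing subunits, PSMB7 alone is one whose place an inducible subunit takes. PSMB7, the constitutive counterpart of PSMB10, had 136 FPKM in each library (135.8 ± 0.313, SD, n = 2), so that PSMB10 stood at a ratio of 0.0645 ± 0.000244 to it. Undivided by length this ratio was 0.202, which, as above, is not an expression level. The counterparts of PSMB8 and PSMB9, PSMB5 and PSMB6, had no identifier paired with their symbol and were not analysed here. All 10 measured further subunits of the barrel reached 1 FPKM, led by PSMB1 (116 ± 1.22), PSMA1 (75.4 ± 0.0757) and PSMB2 (70.7 ± 1.07). Of the 11 standing subunits, PSMB7 included, 1 lay below PSMB8 and PSMB9 in both libraries, PSMB3 at 19.3 ± 0.526, and 10 lay above both. The place of PSMB3 depends on its counted length of 2511 bases. In reads, which are not an expression level, PSMB3 had 1734 and 1528, more than PSMB8 or PSMB9. PSMB10 lay below all 11. Their counted lengths ran from 503 to 5626 bases, and for 1 of them, PSMB4, that length also exceeded the RefSeq gene.

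Assembly and regulation of the barrel gave a mixed picture. POMP, the maturation factor of new proteasomes, had 56.7 ± 0.374 FPKM (SD, n = 2), the inhibitor-like regulator PSMF1 had 32.5 ± 1.06 and the nuclear activator subunit PSME3 had 30.1 ± 0.262. The PA28 activator that interferon gamma induces together with PSMB8, PSMB9 and PSMB10 was near 0. PSME1, its alpha subunit, had 0.137 and 0.0449 FPKM in replicates 1 and 2, from 10 and 3 reads. PSME2, its beta subunit, had 0.436 and 0.344, from 43 and 31 reads. In all, 5 of the 7 measured activator and assembly genes reached 1 FPKM, as did 61.5% of identifiers with a symbol. PSME1 and PSME2 sit in a stretch of chromosome 7 where none of the 10 genes measured had a mean above 1.44 FPKM. That stretch is described among the other observations, and how far its values reflect expression was not tested.

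**Figure D2:**
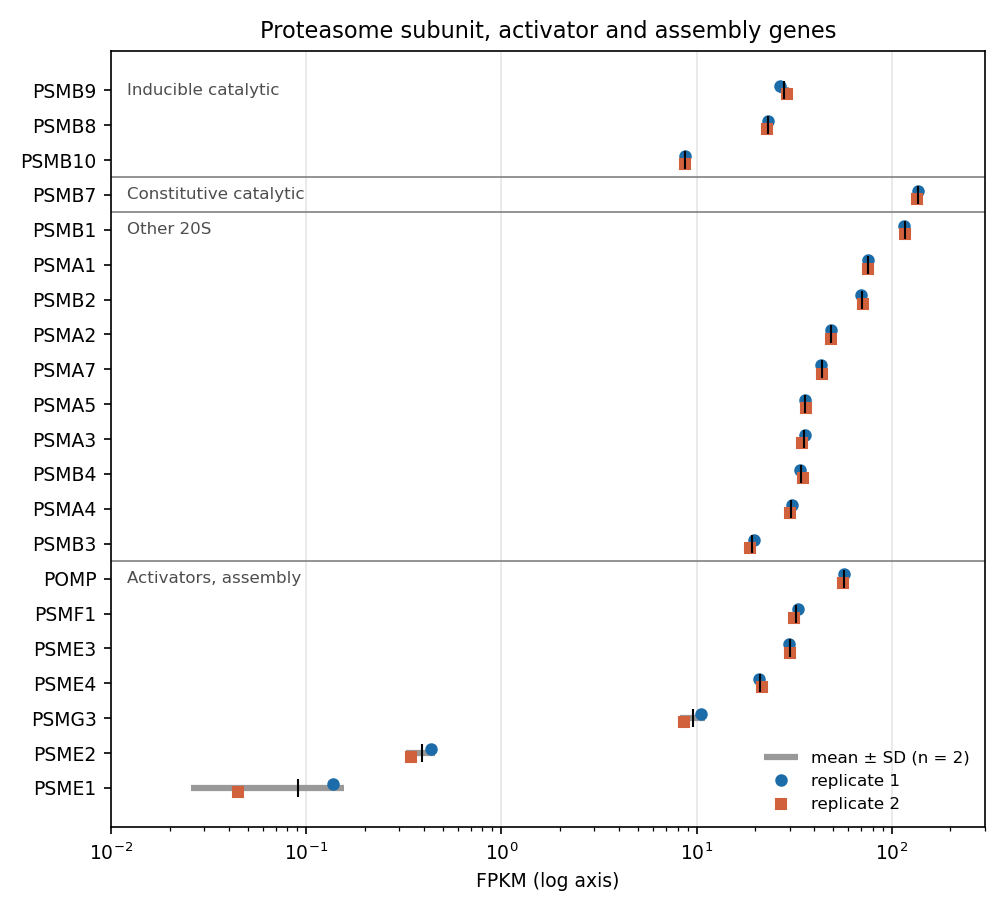
FPKM (log axis) of the inducible catalytic subunits, PSMB7, the other measured 20S subunits and the activator and assembly genes, in replicate 1 (circles) and replicate 2 (squares), with mean (tick) and SD (grey bar, n = 2). PSMB8 and PSMB9 lie just above PSMB3, the lowest standing subunit, PSMB10 lies below all of them, and PSME1 and PSME2 lie under 1 FPKM.

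**Figure D3:**
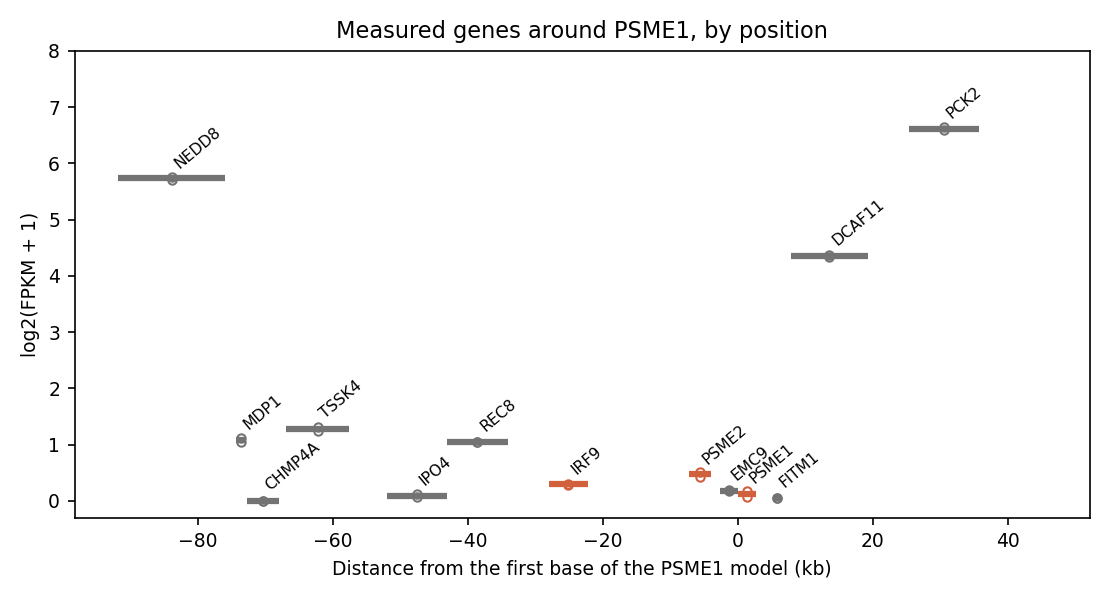
Level on the log2(FPKM + 1) scale of each measured gene from NEDD8 to PCK2 against distance from the first base of the PSME1 model (kb); bars span the RefSeq gene at its mean and open circles are the 2 libraries. PSME1, PSME2 and IRF9 (orange) and the 7 other genes from MDP1 to FITM1 lie below 2, between NEDD8 on one side and DCAF11 and PCK2 on the other.

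The trimming enzymes were expressed at lower levels than the transporter. ERAP1, which shortens peptides to the length class I molecules hold, had 7.65 FPKM in replicate 1 and 7.55 in replicate 2 (7.60 ± 0.0705, SD, n = 2), based on 760 and 687 reads. ERAP2, its relative with another sequence preference, had 1.63 and 1.53 (1.58 ± 0.0668), from 328 and 283 reads. ERAP1 exceeded ERAP2 in both libraries, by a ratio of 4.81 ± 0.158. LNPEP, the third enzyme of this family, which works in endosomes, had 10.3 ± 0.456, a ratio of 1.35 ± 0.0726 to ERAP1. The 3 genes lie side by side in that order within 281.2 kb of chromosome 2. ERAP1 shares 196 bases with its neighbour CAST and ERAP2 overlaps an uncharacterised noncoding RNA gene, so reads near those ends may be missing.

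The other peptidases looked up were all expressed. All 9 measured genes of this list, LNPEP among them, reached 1 FPKM, with a median of 4.22 on the log2(mean FPKM + 1) scale. LAP3, a cytosolic leucine aminopeptidase that interferon gamma also induces, had 41.1 ± 0.895 FPKM (SD, n = 2). NPEPPS, the puromycin-sensitive aminopeptidase, had 30.4 ± 1.30, and BLMH, bleomycin hydrolase, had 27.6 ± 0.0652.

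NLRC5, the coactivator, was the single measured gene of the set under 1 FPKM. Its values were 0.864 FPKM in replicate 1 and 0.671 in replicate 2 (0.768 ± 0.137, SD, n = 2). They rested on 204 and 145 reads over a counted length of 6709 bases. CIITA, the related coactivator of class II promoters, lay at the same level, with 0.763 and 0.751 FPKM (0.757 ± 0.00853), inside the range of NLRC5.

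NLRC5 does not bind DNA itself and works through factors that occupy class I and class II promoters. Of the 10 such genes measured, 9 reached 1 FPKM, and CIITA did not. ATF1 had 23.9 ± 0.00519 FPKM (SD, n = 2), NFYC 22.7 ± 0.200 and USF2 22.2 ± 0.267. Of the RFX complex, through which NLRC5 reaches promoters, RFX5 had 7.67 ± 0.232 and RFXANK 7.14 ± 0.289. Each of the 9 lay above NLRC5 in both libraries, the lowest being CREB1 at 5.86 ± 0.130.

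The interferon gamma and NF-kappaB inputs of the pathway were partly expressed. Of 11 measured genes, 8 reached 1 FPKM, as did 61.5% of identifiers with a symbol. The NF-kappaB subunit RELA had 63.1 ± 0.541 FPKM (SD, n = 2), the receptor-bound kinase JAK1 had 39.4 ± 0.437 and the NF-kappaB subunit NFKB1 had 26.2 ± 0.630. IRF1, which acts on TAP1 and PSMB9, had 15.3 ± 0.403. The gene for interferon gamma itself, IFNG, was listed at 0 in both libraries. IRF8, a leukocyte factor, had 0.0680 in replicate 1 and 0.124 in replicate 2, and IRF9 had 0.234 and 0.219. IRF9 lies in the same low stretch of chromosome 7 as PSME1 and PSME2.

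The products that this pathway loads could be followed only in part. RefSeq places 2 genes with the symbol B2M on chromosome 1 of Sscrofa11.1, from 126837721 to 126844043 and from 126865767 to 126878501, 21.7 kb apart. Of 16 heavy chain symbols looked up, 3 were paired with an identifier, and none of the 3 is a classical peptide-presenting SLA gene. RefSeq marks SLA-4, SLA-11 and MIC-1 as pseudogenes and lists no gene under the symbols SLA-9, MIC-2 and MR1. The lookup was by symbol, and 11023 identifiers of the table carry none, so B2M, classical SLA genes, PSMB5 and PSMB6 may be among those. FCGRT, which encodes the neonatal Fc receptor and pairs with B2M without binding peptide, had 149 and 150.3 FPKM (149.7 ± 0.821, SD, n = 2). HFE, the iron regulator of the same fold, had 4.53 ± 0.0244. MR1, which presents vitamin metabolites, had 0.591 in replicate 1 and 0.633 in replicate 2.

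Class II genes, by contrast, were close to 0. Of 8 measured genes of class II presentation, 1 reached 1 FPKM in both libraries: SLA-DMB, which helps load class II molecules, at 1.51 ± 0.191 FPKM (SD, n = 2), from 81 and 62 reads. CTSS, a lysosomal protease, had 1.18 and 0.891, and CD74, the invariant chain, had 0.890 and 0.898. SLA-DOB, a chain of an accessory class II molecule, had 0.638 and 0.560, from 51 and 41 reads. SLA-DQB1 had 0.110 in the first library and 0 in the second, from 2 and 0 reads. SLA-DMA had 0.0250 and 0, from 1 and 0 reads, and SLA-DOA and SLA-DRA were listed at 0 in both. No identifier was paired with the symbols SLA-DRB1, SLA-DQA1 and SLA-DQA, which were not analysed here. The ratio of TAP1 to SLA-DMB, the highest class II gene measured, was 25.8 ± 2.65.

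Professional antigen-presenting cells express the inducible subunits strongly, so markers of leukocytes were set beside these values. Of 12 leukocyte markers, 3 reached 1 FPKM in both libraries, and their summed level was 6.39 FPKM in replicate 1 and 6.15 in replicate 2. The highest was CD14 at 2.29 ± 0.0775 (SD, n = 2), which mesenchymal cells can also express. The other markers at that level were CORO1A at 1.57 ± 0.120 and CD68 at 1.24 ± 0.102. PTPRC, CD3E, MS4A1 and LAPTM5 were listed at 0 in both libraries. Of 6 endothelial markers, 1 reached 1 FPKM, PECAM1 at 1.76 ± 0.231, and the sums were 2.25 and 2.18. None of 7 epithelial markers did, and 6 of them were listed at 0. Of 10 smooth muscle markers, 8 reached 1 FPKM, as did 61.5% of identifiers with a symbol. ACTA2 led at 693 ± 11.8, and the lowest of the 8 were TAGLN at 5.46 ± 0.175 and DES at 2.90 ± 0.231. MYH11, at 0.491 ± 0.0433, and MYOCD, listed at 0, did not reach 1 FPKM. In such bulk libraries fewer expressing cells and less RNA per cell cannot be told apart.

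**Figure D4:**
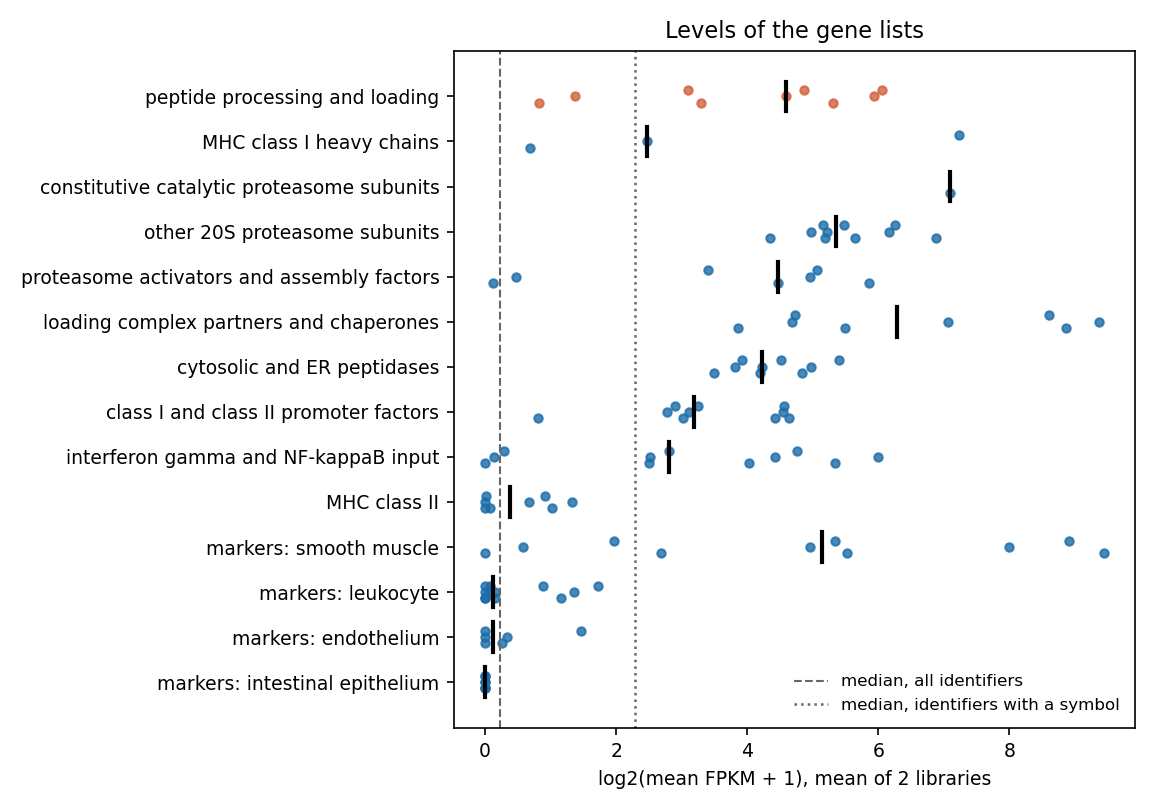
Mean level of each measured gene on the log2(mean FPKM + 1) scale (dots, mean of 2 libraries), by gene list, with the list median (black bar); the dashed and dotted lines are the medians of all identifiers (0.22) and of those with a symbol (2.29). The 9 peptide processing and loading genes (orange) have a median of 4.60. The next list medians are 4.47 below (activator and assembly genes) and 5.15 above (smooth muscle markers). All class II and leukocyte genes plotted lie below 2.

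Of the 9 genes, 4 sit inside the class II region of the pig MHC. On Sscrofa11.1, RefSeq places 5 of the 9 measured genes on chromosome 7. TAP2 runs from 25045085 to 25056915, PSMB8 from 25058456 to 25061666, TAP1 from 25062772 to 25071989 and PSMB9 from 25072133 to 25077508, all 4 within 32.4 kb. TAP1 and PSMB9 are 143 bases apart. The fifth, TAPBP, runs from 29663491 to 29673453, 4.59 Mb beyond PSMB9. Elsewhere, PSMB10 runs from 28544910 to 28547609 and NLRC5 from 18933179 to 19036288, both on chromosome 6. ERAP1 runs from 103378428 to 103415066 and ERAP2 from 103510425 to 103563482 on chromosome 2. All are protein-coding, and each value covers the gene's counted model rather than one exon. In the table TAP1 is ENSSSCG00000025618, TAP2 ENSSSCG00000025593, TAPBP ENSSSCG00000001507, PSMB8 ENSSSCG00000026951 and PSMB9 ENSSSCG00000001463. PSMB10 is ENSSSCG00000031781, ERAP1 ENSSSCG00000014171, ERAP2 ENSSSCG00000027860 and NLRC5 ENSSSCG00000039751. These identifiers, and those of all other genes named here, promoter factors and markers included, were joined to coordinates by symbol, with no check by position. Other genes named that overlap another RefSeq gene include TAPBPL, POMP, BLMH, RFXANK, CREB1, NFYC, CIITA, JAK1, IRF1 and PSME1, the markers MS4A1, PECAM1, MYH11 and MYOCD, and NEDD8, TSSK4, IPO4, EMC9 and FITM1 near PSME1. Their values are uncertain to that extent.

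In the interval from SLA-DQB1 to SLA-DOA, class I pathway genes and class II genes stood at different levels. TAP2, PSMB8, TAP1 and PSMB9 had mean levels from 23.2 to 65.3 FPKM, and the 5 class II genes measured there had from 0 to 1.51. BRD2, a widely expressed chromatin reader between them, had 51.9 ± 1.25 FPKM (SD, n = 2). SLA-DMB and SLA-DMA lie inside the RefSeq model of BRD2. Part of their few reads could belong to it, and other reads of theirs may have been dropped or misassigned.

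**Figure D5:**
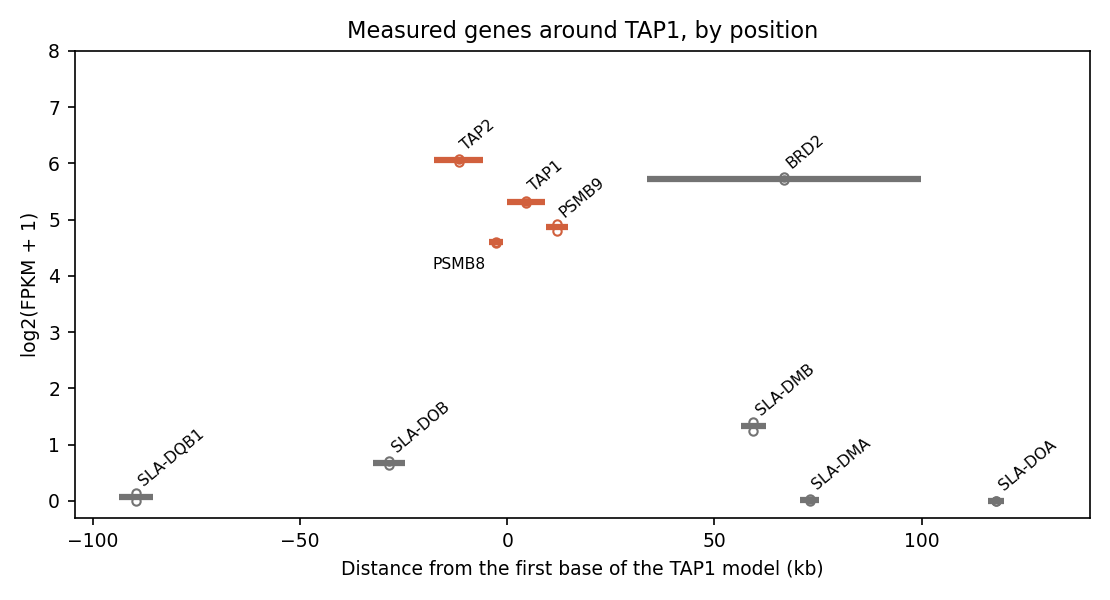
Level on the log2(FPKM + 1) scale of each measured gene from SLA-DQB1 to SLA-DOA against distance from the first base of the TAP1 model (kb); bars span the RefSeq gene at its mean and open circles are the 2 libraries. TAP2, PSMB8, TAP1 and PSMB9 (orange) and BRD2 lie above 4, and the 5 class II genes lie below 2.

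In the comparison of the duplicates these genes stood near the share called over all genes. A two-sided exact binomial test on the recovered reads, Benjamini-Hochberg adjusted over 16327 genes with reads, separated the libraries at 182 genes (1.11%), none of them among the 9. Of the 9, 5 were higher in replicate 1 and 4 in replicate 2. The widest ratio was that of NLRC5, 1.29 times higher in replicate 1, with an unadjusted p of 0.0211 and an adjusted p of 0.335 in that exact test. It was the single one of the 9 with an unadjusted p under 0.05 in that test, as were 1663 of the 16327 genes tested. Among the loading partners, PDIA3 (adjusted p of 0.0150 in the exact test) and CANX, a lectin chaperone (0.0238), were slightly higher in replicate 1. The test compares 2 libraries and no condition, and it covers counting error alone.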

How the data were processed

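RNA was isolated with TRIzol and made into NEBNext Ultra libraries, per the labels' protocols. The submitters' processing notes name TopHat2 2.0.12, HTSeq 0.6.1 and the pig build Sscrofa11.1. Not given in the sources used here: annotation release, strand setting, filters. The authors deposited FPKM values, one column per library, which were used as they stand. Library totals were recovered as the smallest numbers that turn the FPKM values of 12 mitochondrial genes into whole reads at their RefSeq lengths (within 0.01 read). Each gene then took the shortest length from 50 to 30000 bases giving whole reads in both libraries within 1.2 times the rounding, which succeeded for 100.0% of 16327 genes above 0. These reads are minimum estimates. Symbols came from a gene name table (14857 of 25880 identifiers; SLA-DRA and SLA-DOB stand there as HLA-DRA and HLA-DOB), and coordinates from RefSeq on Sscrofa11.1.

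A gene counted as expressed at 1 FPKM or more in both libraries, and list medians used a pseudocount of 1. With 1 group, no conditions were compared. Libraries were compared by exact binomial tests (scipy 1.17.1). These were also run on simulated reads whose only random spread was counting error, so wider spread between libraries was not checked. The members, lists and tests were chosen with earlier results of these data known. The text names every member, every measured heavy chain and constitutive catalytic subunit, and, in other pathway lists, the 3 highest genes and those under 1 FPKM. TAPBPL, LNPEP, IRF1, RFX5, RFXANK, CREB1, PSMB3, PSMB4, CANX, CORO1A, CD68, TAGLN and DES were added after their values were seen. One gene of the interferon gamma list is not reported here and was left out of its counts. Sequences are not shown here.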

Additional observations from a re-analysis of the deposited data

How the results depend on the processing

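The number of measured genes at the detection level was 8 with either library left out, 9 at 0.1 FPKM, 7 at 5 FPKM (ERAP2 and NLRC5 under it) and 9 at 1 TPM (FPKM rescaled to a sum of 1000000). Their median of 4.60 became 4.54 with a pseudocount of 0.1, 3.93 as a mean and 6.002 in TPM, and ran from 4.59 to 4.61 with either library left out. The ratio of PSMB10 to PSMB7 ran from 0.0644 to 0.0647 with either library left out and was 0.0714 with a pseudocount of 1. It was 0.202 in reads not divided by length, an alternative chosen after seeing the data. Its construction removes the counted lengths, so it is not an expression level. Ratios of PSMB8 to PSMB5 and of PSMB9 to PSMB6 were planned and could not be computed, since PSMB5 and PSMB6 had no paired identifier. The libraries differed at 220 genes when genes under 10 reads were left out, and at 184 with upper quartile scaling, with 0 of the 9 among them in either case. No paired analysis was possible because the design holds 1 group. Depth gave at least 145 reads per library for each of the 9 genes. The main limits are symbol-based pairing, gene models of uncertain length and the absence of B2M and the classical SLA genes from what was analysed here.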

Other observations

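The low values of PSME1 and PSME2 were shared by their neighbours on chromosome 7. From MDP1 to FITM1, an 80.8 kb stretch of the RefSeq annotation, 10 genes were measured, and the highest mean was 1.44 FPKM (TSSK4, a testis kinase gene). MDP1, TSSK4 and REC8, 3 of the 10, reached 1 FPKM in both libraries, as did 61.5% of identifiers with a symbol. These neighbours were chosen after the values of PSME1 and PSME2 were seen. Several are genes that most cells use: CHMP4A, of the ESCRT membrane-scission machinery, was listed at 0 in both libraries, and IPO4, a nuclear import receptor, had 0.0846 FPKM in replicate 1 and 0.0513 in replicate 2. EMC9, of the membrane protein insertion complex, had 0.131 and 0.143. The 5 genes from IRF9 to FITM1 (IRF9, PSME2, EMC9, PSME1 and FITM1) were each under 0.5 FPKM in both libraries. The genes on either side were abundant: NEDD8, a ubiquitin-like modifier, had 52.1 ± 1.71 FPKM (SD, n = 2), DCAF11 had 19.4 ± 0.257 and PCK2, a mitochondrial metabolic enzyme, had 97.1 ± 2.13. The cause of the low stretch was not tested.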
